A study of Mus musculus with 6 samples.

Results

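The clustered, replication-dependent histone genes of the mouse were read in RNA-seq libraries of bone marrow cells. They were taken as every protein-coding row of the deposited count table whose gene name starts with Hist1h, Hist2h, Hist3h or Hist4h. The rule found 67 genes among 54532. The Hist1 cluster on chromosome 13 held 54 of them, the Hist2 cluster on chromosome 3 held 10, the Hist3 cluster on chromosome 11 held 2, and Hist4h4 stood alone on chromosome 6. By class there were 6 H1, 18 H2A, 18 H2B, 12 H3 and 13 H4 genes. The cells came from the femurs of mice with the wild-type genotype. In 3 samples the mice had been under hindlimb unloading for 4 weeks, a disuse model of osteoporosis in which the hind limbs bear no weight, and 3 control samples came from mice with no treatment. The strain, the age and whether each sample was 1 animal or a pool were not given in the sources used here. The p-values therefore reflect how far these samples spread, which may be technical.

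Histones package DNA into nucleosomes. Pairs of H2A, H2B, H3 and H4 form the core around which DNA is wound, and the linker histone H1 binds where the DNA enters and leaves it. The clustered genes are transcribed mainly in S phase to supply new chromatin, so they are most active in dividing cells, of which marrow has many among its blood cell precursors. Their messages are unusual in that most carry no poly(A) tail. They end just after a short stem-loop, which is bound by the stem-loop binding protein Slbp and cut with the help of the U7 small nuclear RNP. Libraries made from poly(A) RNA therefore see these messages only in part. Whether poly(A) RNA was selected is not given in the sources used here.

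The 67 genes took up few of the reads. The unloaded libraries held 15850986, 16543465 and 16357961 counts and the control libraries 17775506, 16878388 and 16727836. The histone genes made up 0.0347% ± 0.00699 of the counts in unloaded libraries and 0.0409% ± 0.00666 in control libraries (SD, n = 3 each). The unloaded 1 library stood apart from the rest, at -51.2 on the first principal component against 7.37 to 13.7 for the other 5. Its mitochondrially encoded transcripts were 0.439% of counts, against 1.05% to 1.27% in the others. The sums over histone genes, the medians of related gene lists and the histone genes with the smallest p are also given without it. Levels are in CPM, the counts of a gene relative to the library total, scaled with TMM factors. A gene at 0 could still have been present at up to 3 counts, which is 0.172 to 0.191 CPM. The samples showed the markers of marrow, with summed mature neutrophil markers at 54010 CPM in unloaded and 56640 CPM in control libraries. Germ cell markers, relevant because a few of these histone genes are known from testis, summed to between 0.432 and 1.41 CPM in unloaded and 1.57 and 2.52 CPM in control libraries, with Prm2 and Tnp1 at 0.

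The rule that chose the genes used no sequence. A 3′ stem-loop of 16 bases was found in an annotated transcript of 46 of the 67 genes, in GENCODE M21 on the GRCm38 build, whose gene positions equalled the deposited ones for all 67. The 46 genes used 8 versions of it. The version shown first for Hist1h1c was found in 26 genes, 3 of H1, 10 of H2A, 8 of H2B and 5 of H3. The H4 genes had versions found in no other class, the commonest of them, that of Hist1h4d, in 7 genes. These sequences are shown because they carry the signal for the ending without a tail, with the stem-loop in capitals and 5 bases of flank on each side in lower case.
Hist1h1c (linker histone H1.2, chr13:23739512-23739527, plus strand): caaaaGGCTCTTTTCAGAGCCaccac
Hist1h2ab (H2A, chr13:23751572-23751587, plus strand): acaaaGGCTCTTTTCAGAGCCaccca
Hist1h2bb (H2B, chr13:23747203-23747218, plus strand): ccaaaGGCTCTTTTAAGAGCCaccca
Hist1h3g (H3, chr13:23535889-23535904, plus strand): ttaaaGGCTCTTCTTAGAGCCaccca
Hist1h4d (H4, chr13:23581950-23581965, plus strand): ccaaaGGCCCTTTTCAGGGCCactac
Hist1h4i (H4, chr13:22040966-22040981, minus strand): ttaaaGGCCCTTTTTAGGGCCaccac
The search pattern fixed the GG at the start of the stem, the CC at its end and several bases between them. It also limited most other positions to certain bases. Bases shared by every match therefore say nothing, and the search limited which versions could be found. The class difference lies in the bases within the stem that vary between versions.

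Of the 67 genes, 60 had at least 1 count in some library and 7 had none. The 7 were Hist1h2aa, Hist1h2ba, Hist2h2aa1, Hist2h2aa2, Hist2h2bb, Hist2h3b and Hist2h3c1. Hist1h2aa and Hist1h2ba, the H2A and H2B genes known from testis, have mostly unique sequence, since 76.2% and 61.8% of their pieces of 50 bases occur in no other annotated gene. The 5 others, all in the Hist2 cluster, have no unique piece at all, and no other member had none. For 4 of the 5 the shared pieces were shared with other histone genes, among others. Hist2h2bb shared its pieces with 2 genes, neither of them one of the 67, and 2 annotated genes overlap it in place. Hist2h2aa1 and Hist2h3c1 are overlapped on their own strand as well. A count of 0 for these 5 is therefore no measure of their expression, because their reads can be given to another annotated gene. How reads with several matches were treated is not given in the sources used here. Another 9 genes were detected but too low to pass the filter on low counts, and 51 were tested, namely 5 of 6 H1, 10 of 18 H2A, 16 of 18 H2B, 9 of 12 H3 and 11 of 13 H4. Of the 9, Hist1h1t, the testis H1, had 2 counts in all, both in control libraries. The other 8 (Hist1h2af, Hist1h2ah, Hist1h2an, Hist1h2ap, Hist2h2ab, Hist1h3b, Hist1h4a and Hist1h4b) had between 10 and 59 counts over the 6 libraries.

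Near-identical copies and overlapping annotation limit what a count for 1 of these genes means. In 34 of the 67 genes fewer than 50% of the pieces were unique, and in 12 fewer than 10%. The 13 H4 genes have 12 different coding sequences, 85.4% to 100% identical to each other, which encode a single protein of 103 residues counted with the first methionine. By their longest annotated coding sequences the 12 H3 genes encode 3 proteins, of which 1 is shared by 7 genes. Another 1 of the 3 is that of Hist2h3c1 alone, a gene with no counts. Its coding sequence is annotated at 543 bases, against 408 for the 11 others. The 6 H1 genes are the most distinct, with a protein each and all pieces unique in Hist1h1a, Hist1h1b and Hist1h1t. The only core histone gene with all pieces unique was Hist2h2be. All 18 H2A genes also overlap an annotated gene on the other strand, and whether counting used the strand is not given in the sources used here. Without strand, reads within such an overlap cannot be given to either gene with certainty. The partner genes held 0 counts for 15 of the 18, the exceptions being those at Hist2h2aa1, Hist2h2aa2 and Hist2h2ab. Some tested genes overlap another gene on their own strand. Hist1h1e and Hist1h2be overlap each other, Hist3h2a overlaps Trim17, and Hist1h2ac overlaps Gm24991. Reads in those stretches cannot be given to either gene with certainty, even with the strand known.

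**Figure D1:**
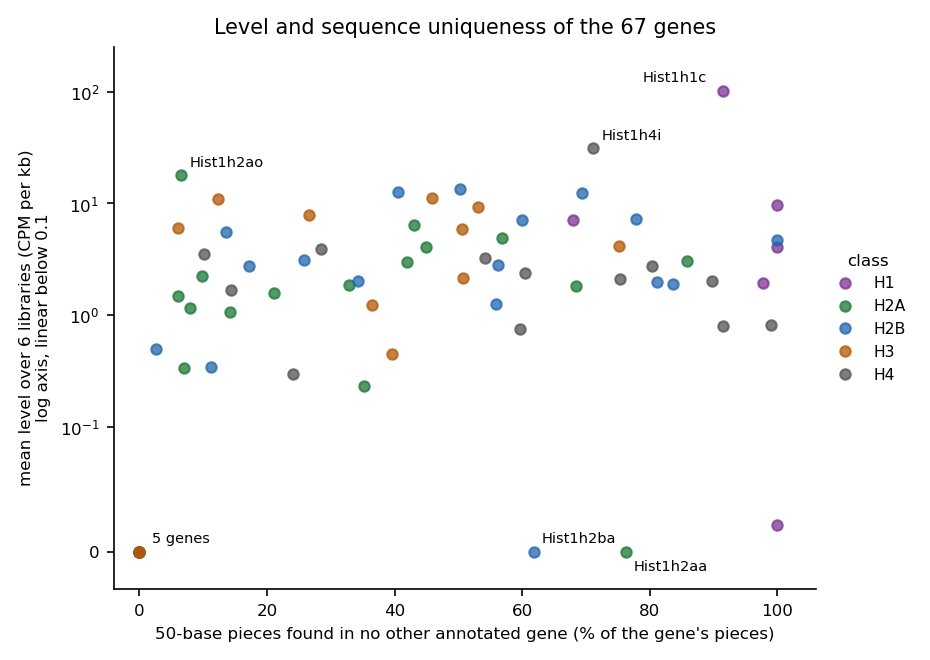
Mean level over the 6 libraries (CPM per kb of gene length, log axis that is linear below 0.1) against the share of each gene's 50-base pieces found in no other annotated gene, for the 67 histone genes coloured by class. The 5 genes without any unique piece sit at 0, Hist1h1c stands highest at 101.8 CPM per kb, and Hist1h2ao is high although 6.5% of its pieces are unique.

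Hist1h1c, which encodes the linker histone H1.2, was the most abundant of the genes and the one whose level carried the family's total. It lies at chr13:23738808-23740367 on the plus strand (ENSMUSG00000036181). Its level was 97.2, 149 and 136 CPM in unloaded libraries and 238, 187 and 145 CPM in control libraries. Control 1 and 2 lay above all unloaded libraries and control 3 lay among them, so the groups overlapped. The log2 fold change was -0.58 ± 0.19 (SE), with an unadjusted p of 0.0122 and an adjusted p of 0.801 by edgeR's quasi-likelihood test with Benjamini-Hochberg adjustment over 15015 genes, which is no call. Without unloaded 1 it was -0.42, with an adjusted p of 0.476, and without control 1 it was -0.38, with an unadjusted p of 0.0759. DESeq2 gave an adjusted p of 0.299, and limma-voom one of 0.821. With no filter on low counts, which adds sparse genes to the fit, edgeR gave -0.59 and an adjusted p of 0.00116, so whether this gene is called depends on that setting. It accounted for 35.6%, 37.6% and 36.9% of all histone counts in unloaded libraries and for 50.5%, 43.0% and 44.1% in control libraries. These 2 ranges do not overlap. The shares of H2A, H3 and H4 did not overlap either and were higher in unloaded libraries, while those of H2B overlapped. Shares of the same total are tied to each other, so these are not separate results.

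Some other values moved with Hist1h1c across the libraries. The summed level of 6 immediate early genes, which respond within minutes to stimulation and to cell handling, was 1859, 2820 and 3011 CPM in unloaded libraries and 4902, 3229 and 3160 CPM in control libraries. Unloaded 1 was lowest and control 1 highest for both. The fold changes of all 6 were below 0, their median log2 was -0.55 (-0.38 without unloaded 1), and none was called. Junb, a subunit of the AP-1 transcription factor, was at 582, 911 and 853 CPM in unloaded libraries and 1240, 1160 and 934 CPM in control libraries, with no overlap and an adjusted p of 0.801. Unloaded 1 was also lowest and control 1 highest for the B cell precursor gene Rag1, at 40.9, 63.7 and 46.2 CPM in unloaded libraries and 99.1, 72.6 and 66.9 CPM in control libraries, named here after its values were seen. The part of handling, of cell types or of the unloaded 1 library in the level of Hist1h1c was not tested.

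In the summed level of all 67 genes the groups overlapped, and most of the difference between the means came from Hist1h1c. The sum was 272.8, 396.4 and 367.9 CPM in unloaded libraries and 471.9, 435.8 and 329.3 CPM in control libraries, a log2 ratio of means of -0.25. Unloaded 1 was the lowest of the 6. With that library left out the ratio was -0.11. The sum without Hist1h1c was 218.3 ± 37.8 CPM in unloaded and 222.0 ± 33.7 CPM in control libraries (SD, n = 3 each), a log2 ratio of -0.02, or 0.11 without unloaded 1. No test was made of sums, since the genes were chosen as a set. In bulk samples such as these, fewer dividing cells and less histone RNA per dividing cell cannot be told apart.

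**Figure D2:**
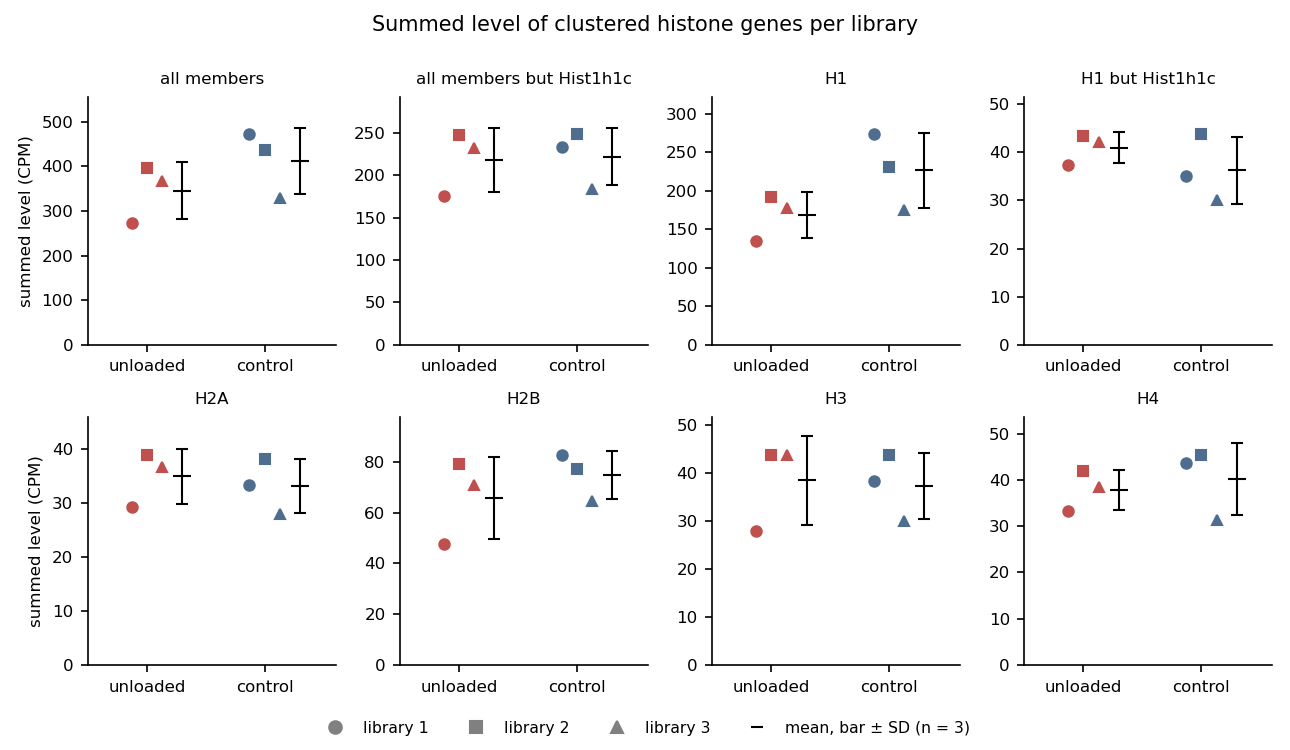
Summed level (CPM) of all 67 genes and of each class in each of the 3 unloaded and 3 control libraries, with the mean and SD beside the points and the axes starting at 0. The groups overlap in every panel, and the lower unloaded mean for all members (345.7 CPM, against 412.3 CPM in control) is nearly gone once Hist1h1c is left out (218.3 CPM in unloaded and 222.0 CPM in control).

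The 5 classes did not share a direction. H1 summed to 134.6, 192.4 and 178.1 CPM in unloaded libraries and 273.5, 231.1 and 175.2 CPM in control libraries, a log2 ratio of -0.43, or -0.29 without unloaded 1. Without Hist1h1c the H1 ratio was 0.18, or 0.24 with unloaded 1 left out too, so its sign was that of this gene. H2A summed to 29.2, 39.0 and 36.7 CPM in unloaded libraries and 33.3, 38.1 and 28.0 CPM in control libraries, a log2 ratio of 0.08. The H2A ratio was 0.19 without unloaded 1 and fell below 0 without control 3, at -0.03, or without unloaded 2. H2B summed to 47.8, 79.2 and 70.8 CPM in unloaded libraries and 82.9, 77.3 and 64.6 CPM in control libraries, a log2 ratio of -0.19. The H2B ratio was 0.00 without unloaded 1, and that library was the lowest of the 6 for 8 of the 16 tested H2B genes. H3 summed to 27.9, 43.9 and 43.8 CPM in unloaded libraries and 38.3, 43.8 and 30.1 CPM in control libraries, a log2 ratio of 0.04. The H3 ratio was 0.23 without unloaded 1 and below 0 without unloaded 2, unloaded 3 or control 3, where it was lowest at -0.09. H4 summed to 33.3, 41.9 and 38.5 CPM in unloaded libraries and 43.8, 45.5 and 31.3 CPM in control libraries, a log2 ratio of -0.09. The H4 ratio was 0.00 without unloaded 1, 0.01 without control 2 and -0.24 without control 3. For H2A, H2B, H3 and H4 the group means differed by less than the SD of either group. For H1 they were 168.4 ± 30.1 CPM in unloaded and 226.6 ± 49.3 CPM in control libraries (SD, n = 3 each), further apart than either SD but with control 3 inside the unloaded range.

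No single histone gene was called. edgeR called 0 of the 51 tested members at an adjusted p under 0.05, and it called 0% of the 15015 genes tested. At an unadjusted p under 0.05 there were 3 members, against 5.85% of all tested genes. Of these, 2 were higher in unloaded samples, against 2.67% of all genes, and 1 was lower, against 3.18%. DESeq2 called 0 members, against 0.253% of the genes it adjusted, and had 1 member at an unadjusted p under 0.05, while limma-voom called 0 and had 4. Fold changes were positive for 26 members and negative for 25, with a median log2 of 0.01, the same as the 0.01 over all tested genes. Without unloaded 1 the median of the 51 was 0.16, with 34 positive and 17 negative, while that over all genes was 0.00. Unloaded 1 was the lowest library for 39.2% of the tested members and for 29.5% of all tested genes.

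**Figure D3:**
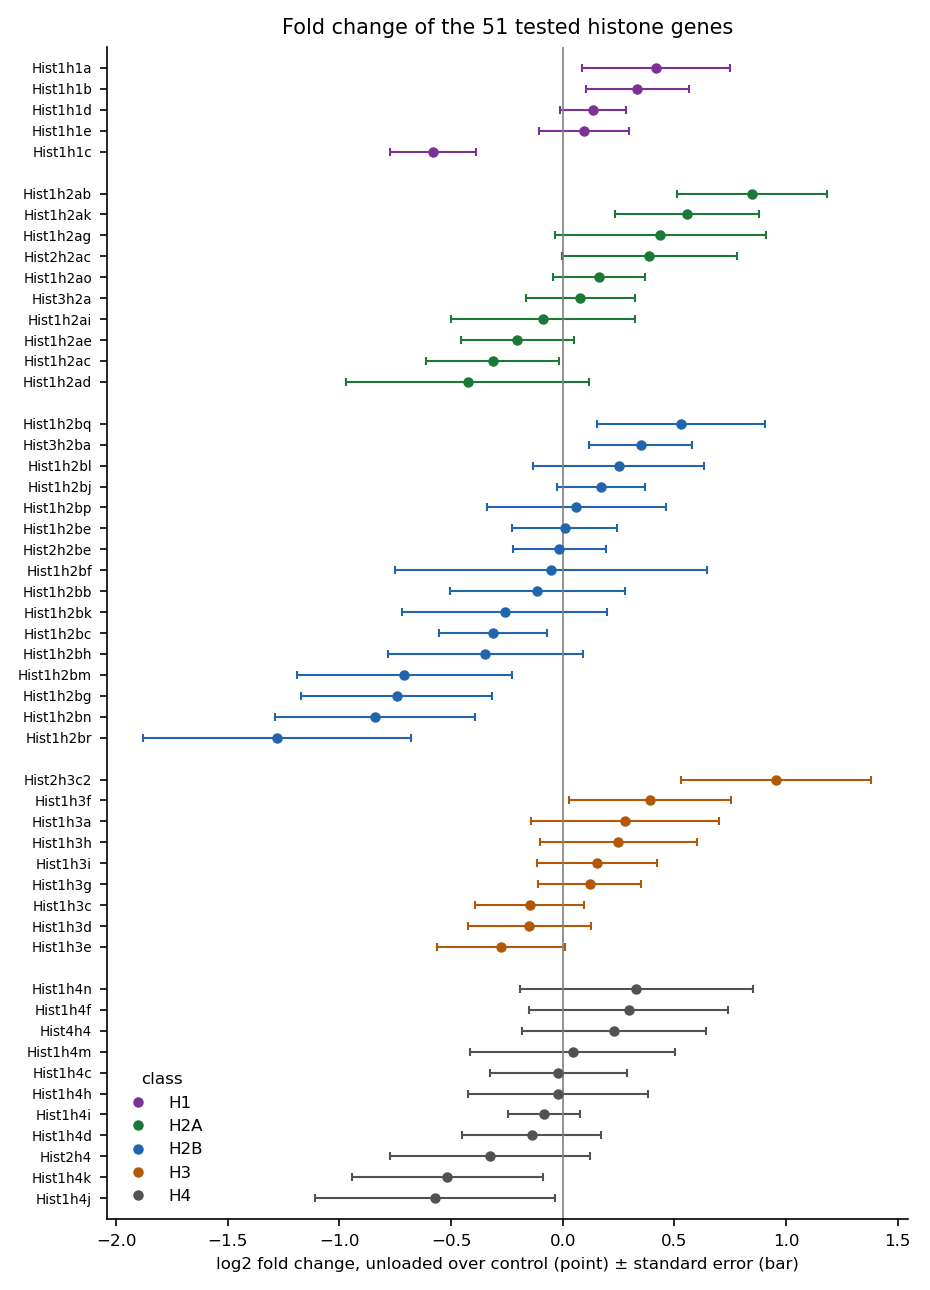
Log2 fold change, unloaded over control, with its standard error for the 51 tested histone genes, grouped by class. The points lie on both sides of 0 in each class, from -1.28 for Hist1h2br to 0.96 for Hist2h3c2, and Hist1h1c is the one H1 gene below 0.

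Of the 5 tested linker histones, only Hist1h1c had a fold change below 0. Hist1h1d, encoding H1.3, was at 14.8, 14.8 and 16.2 CPM in unloaded libraries and 14.9, 14.6 and 12.3 CPM in control libraries, with a log2 fold change of 0.13 ± 0.15 (SE). Hist1h1e, encoding H1.4, had 14.3 ± 1.82 CPM in unloaded and 13.4 ± 3.59 CPM in control libraries (SD, n = 3 each). Its fold change of 0.10 changed sign when control 1 or control 3 was left out. Hist1h1b, encoding H1.5, was at 6.88, 8.95 and 8.15 CPM in unloaded libraries and 5.49, 8.32 and 5.23 CPM in control libraries, with a log2 fold change of 0.33 ± 0.23. Hist1h1a, encoding H1.1, was at 3.38, 3.71 and 3.27 CPM in unloaded libraries, above the 3.15, 3.26 and 1.35 CPM of the control libraries, although the nearest libraries were almost level.

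Among the H2A genes the values spread on both sides. Hist1h2ab had 1.53, 2.18 and 1.79 CPM in unloaded libraries and 1.09, 0.904 and 1.06 CPM in control libraries. All unloaded libraries lay above all control libraries. The log2 fold change was 0.85 ± 0.34 (SE), with an unadjusted p of 0.0287 and an adjusted p of 0.804, on 142 counts over the 6 libraries, and 42% of its pieces are unique. Its fold change was 0.96 without unloaded 1, and with any other library left out edgeR's unadjusted p ran from 0.0548 to 0.111. Hist1h2ao, the most abundant H2A gene, was at 6.82, 10.5 and 9.81 CPM in unloaded and 7.89, 8.74 and 7.63 CPM in control libraries, overlapping. Hist1h2ac, the next by CPM, had 3.89, 9.43 and 6.85 CPM in unloaded libraries against 8.35, 10 and 6.75 CPM in control libraries, with unloaded 1 the lowest. Its log2 fold change of -0.31 was -0.04 without that library. Hist1h2ak was at 2.99, 2.59 and 3.46 CPM in unloaded and 1.54, 2.95 and 1.64 CPM in control libraries, with control 2 inside the unloaded range. Its log2 fold change was 0.56 with or without unloaded 1, and 0.91 without control 2. Hist3h2a averaged 4.03 ± 0.125 CPM in unloaded and 3.81 ± 0.787 CPM in control libraries, and Hist1h2ae 3.2 ± 0.496 CPM in unloaded and 3.69 ± 0.546 CPM in control libraries (SD, n = 3 each). The other 4 tested H2A genes had fold changes from -0.43 for Hist1h2ad to 0.44 for Hist1h2ag, and their groups overlapped.

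The H2B genes held the members with the lowest fold changes. Hist1h2bg had 2.74, 7.25 and 8.52 CPM in unloaded libraries and 16.8, 6.09 and 8.10 CPM in control libraries, so the difference came from a low unloaded 1 and a high control 1. The log2 fold change of Hist1h2bg was -0.74 ± 0.43 (SE) and its adjusted p 0.89, and it was -0.39 without unloaded 1 and -0.20 without control 1. Hist1h2bn was at 0.51, 1.59 and 2.47 CPM in unloaded and 2.8, 3.13 and 2.29 CPM in control libraries, overlapping, with a log2 fold change of -0.84. Without unloaded 1 that was -0.43, and without unloaded 3 it was -1.37. Hist1h2br was at 0.255, 0.884 and 0.185 CPM in unloaded and 1.54, 1.09 and 0.646 CPM in control libraries, with unloaded 2 among the controls. Its log2 fold change of -1.28 ± 0.60 (SE) was the lowest of the 51, on 78 counts in all, with an adjusted p of 0.858. It was -1.01 without unloaded 1 and -2.28 without unloaded 2. Unique pieces made up 11.3% of those of Hist1h2br, 13.6% for Hist1h2bn and 50.3% for Hist1h2bg. The counts of the first 2 thus depend most on how shared reads were handled.

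Hist1h2bg was also among the 4 H2B genes with the highest CPM, and the other 3 had smaller fold changes. Hist1h2bc had 9.69, 16.4 and 12.4 CPM in unloaded and 16.8, 19.8 and 11.2 CPM in control libraries, a log2 fold change of -0.31 that was -0.14 without unloaded 1. Hist2h2be, whose sequence is unique, had 9.43, 16.3 and 11 CPM in unloaded and 12.0, 11.6 and 13.5 CPM in control libraries, a log2 fold change of -0.01 that became positive with upper-quartile scaling. Hist1h2be averaged 8.47 ± 1.99 CPM in unloaded and 8.42 ± 1.79 CPM in control libraries (SD, n = 3 each). Hist3h2ba was at 4.91, 5.83 and 4.14 CPM in unloaded and 3.83, 3.62 and 4.23 CPM in control libraries, with 1 unloaded library below the highest control. Its log2 fold change of 0.35 was 0.36 without unloaded 1 and 0.21 without unloaded 2. In Hist1h2bc, Hist2h2be, Hist1h2be and Hist3h2ba the groups overlapped. They also overlapped in 7 further H2B genes, whose fold changes ran from -0.71 for Hist1h2bm to 0.25 for Hist1h2bl.

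Of the H3 genes, Hist2h3c2 alone reached an unadjusted p under 0.05. It was at 0.956, 1.47 and 2.59 CPM in unloaded libraries and 0.915, 0.784 and 0.881 CPM in control libraries. The unloaded libraries all lay above the controls, unloaded 1 by little. The log2 fold change was 0.96 ± 0.43 (SE), with an unadjusted p of 0.0476 and an adjusted p of 0.847 by edgeR's test, on 126 counts in all. It rested on unloaded 3, without which the fold change was 0.50 with an unadjusted p of 0.303, and it was 1.23 without unloaded 1. It is the only H3 gene of the Hist2 cluster with counts, and 36.5% of its pieces are unique. The 4 H3 genes with the highest CPM overlapped between the groups. Hist1h3e had 3.89, 7.48 and 6.67 CPM in unloaded and 8.69, 8.02 and 5.17 CPM in control libraries. Hist1h3g averaged 6.13 ± 1.12 CPM in unloaded and 5.64 ± 0.909 CPM in control libraries, Hist1h3c 5.51 ± 1.06 CPM in unloaded and 6.11 ± 1.40 CPM in control libraries, and Hist1h3d 4.91 ± 1.53 CPM in unloaded and 5.46 ± 1.17 CPM in control libraries (SD, n = 3 each). In the other 4 tested H3 genes the fold changes ran from 0.15 for Hist1h3i to 0.39 for Hist1h3f, with overlapping groups.

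The H4 genes gave no member at an unadjusted p under 0.05. Hist1h4i, which lies at chr13:22040636-22041362 on the minus strand (ENSMUSG00000060639), was the most abundant gene after Hist1h1c, at 31.3 CPM per kb against 101.8 CPM per kb. Its level was 21, 22.6 and 22.8 CPM in unloaded libraries, inside the range of 27.5, 24.9 and 18 CPM in control libraries, with a log2 fold change of -0.08 ± 0.16 (SE). Hist4h4 had 1.91, 4.12 and 1.36 CPM in unloaded and 2.52, 1.57 and 2.23 CPM in control libraries. Hist1h4d averaged 2.2 ± 0.692 CPM in unloaded and 2.43 ± 0.212 CPM in control libraries, and Hist1h4c 2.27 ± 0.157 CPM in unloaded and 2.3 ± 0.698 CPM in control libraries (SD, n = 3 each). The other 7 tested H4 genes overlapped between the groups, with fold changes from -0.57 for Hist1h4j to 0.33 for Hist1h4n.

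**Figure D4:**
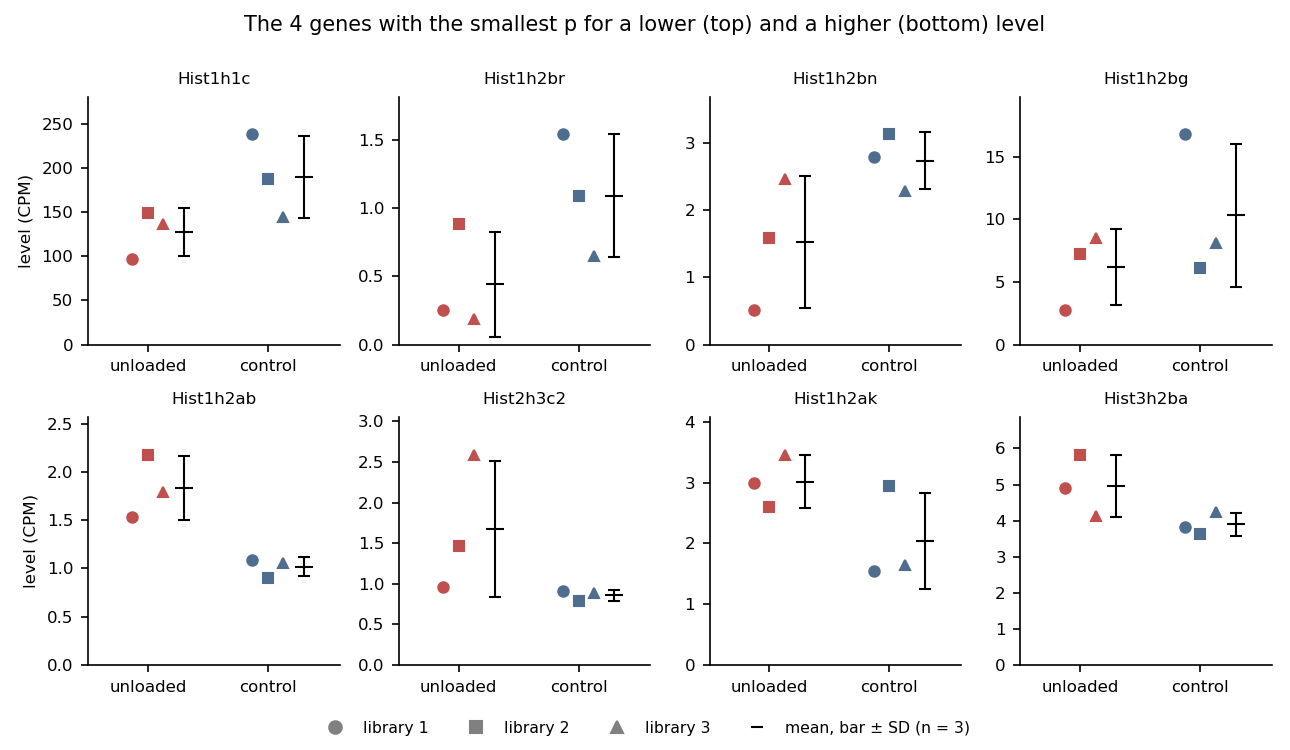
Level (CPM) in each library of the 4 histone genes with the smallest p among those lower and the 4 among those higher in unloaded samples, with the mean and SD beside the points and axes from 0. In Hist1h2ab and Hist2h3c2 all unloaded libraries lie above all control libraries, while the other 6 overlap.

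The groups did not overlap in 5 of the 51 tested members, against 11.9% of all tested genes. In all 5 the unloaded libraries lay above the controls, against 5.46% of tested genes, and 0 members lay below, against 6.4%. Beside Hist1h2ab, Hist2h3c2 and Hist1h1a these were Hist1h2bj and Hist1h2bq, named here after their values were seen. Hist1h2bj was at 6.12, 6.24 and 6.30 CPM in unloaded libraries and 5.09, 5.43 and 6.05 CPM in control libraries, with a log2 fold change of 0.17 ± 0.20 (SE). Hist1h2bq had 1.27, 1.24 and 1.05 CPM in unloaded and 1.03, 0.723 and 0.705 CPM in control libraries, and 2.68% of its pieces are unique.

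Most of the summed level lay in genes whose annotated transcript runs on past the stem-loop. Of the 46 genes with a match, 23 had a transcript that runs more than 100 bases past the stem-loop. A message with a poly(A) tail would do so. In the other 23, every transcript that holds the stem-loop ended within 100 bases of it. Transcripts without a match were not judged. Hist1h2bp, placed among those that end there, has 2 annotated transcripts, and its gene reaches beyond the end of the transcript with the stem-loop. The 23 that run past it supplied 72.7% of the histone CPM. Those other than Hist1h1c, whose transcript goes on for 840 bases, supplied 30.8%. The 23 that end at the stem-loop supplied 12.8%, and the 21 genes without a match 14.5%. A gene without a match need not lack a stem-loop, since some annotated transcripts stop at the end of the coding sequence. That of Hist1h3h, for example, has 411 bases, of which 408 are coding. The most abundant of the 21 were Hist1h2bc and Hist2h2be, at 14.4 and 12.3 CPM over the 6 libraries. The split describes the annotation and not measured ends of messages. The genes that run past it summed to 113.7 ± 20.0 CPM in unloaded and 119.8 ± 19.9 CPM in control libraries without Hist1h1c, a log2 ratio of -0.08, or 0.06 without unloaded 1. Those that end there summed to 49.7 ± 10.01 CPM in unloaded and 47.0 ± 8.15 CPM in control libraries (SD, n = 3 each), a log2 ratio of 0.08, or 0.24 without unloaded 1. In both sets the groups overlapped. Per kb of gene length the median level was 2.11 CPM per kb for genes that run past and 2.80 CPM per kb for those that end at the stem-loop. Of 15 rows for RNAs that are known to lack a tail, such as the 7SK RNA, 4 were detected, and they summed to between 1.47 and 3.83 CPM in unloaded and 1.12 and 3.31 CPM in control libraries.

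Several H2A and H2B genes lie back to back and share the stretch between their start sites. There were 12 such pairs, 175 to 305 bases apart, and in 8 both genes were tested. Hist1h2ac and Hist1h2bc, 250 bases apart, had the same log2 fold change of -0.31. Hist1h2ak and Hist1h2bn, 295 bases apart, had 0.56 and -0.84. In all, 3 of the 8 pairs had opposite signs, and none of these fold changes was called, so the pairs give no direction that members share.

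RefSeq promoter windows of the GRCm38.p6 build, from 250 bases before to 50 after the start, were matched by gene name synonym for 61 of the 67 genes. They were searched on both strands for motifs known from histone promoters, and none of these motifs is contained in another. The octamer ATTTGCAT, which the factor Oct-1 (Pou2f1) binds, was in 41.2% of H2A and 37.5% of H2B windows, in none of H1, H3 or H4, and in 1.74% of all 32817 windows. CCAAT, bound by the NF-Y complex, was in all H1, H2A, H2B and H3 windows and in 25% of H4 windows, against 37.4% of all. AAACACA, the H1 box, was in 83.3% of H1 windows and 7.19% of all, and TATAAA in 57.4% of the histone windows and 13.6% of all. Windows of back-to-back H2A and H2B genes can overlap, as those of Hist1h2ae and Hist1h2bg do. The same match can then count in both classes, so the H2A and H2B shares are not independent. A match is a description of letters and not of binding. The 200 bases before the start are shown for the most abundant H1 and H4 genes and for the H2A gene with the smallest p, to set the class patterns side by side, with motif matches on either strand in capitals.
Hist1h1c (chr13:23738607-23738806, plus strand): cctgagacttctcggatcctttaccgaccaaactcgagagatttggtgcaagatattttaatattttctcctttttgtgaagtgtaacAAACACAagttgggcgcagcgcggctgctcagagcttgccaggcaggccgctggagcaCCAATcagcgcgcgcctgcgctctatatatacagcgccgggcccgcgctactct
Hist1h2ab (chr13:23750888-23751087, plus strand): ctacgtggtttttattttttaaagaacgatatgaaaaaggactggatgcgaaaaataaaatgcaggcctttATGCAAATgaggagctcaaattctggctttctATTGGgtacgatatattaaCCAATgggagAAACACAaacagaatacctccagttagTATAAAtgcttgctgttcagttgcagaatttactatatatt
Hist1h4i (chr13:22041363-22041562, minus strand): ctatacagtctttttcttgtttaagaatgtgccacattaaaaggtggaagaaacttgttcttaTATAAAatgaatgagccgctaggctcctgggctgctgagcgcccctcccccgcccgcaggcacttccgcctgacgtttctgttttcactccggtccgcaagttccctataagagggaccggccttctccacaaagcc
Hist1h1c held the H1 box and 1 CCAAT, Hist1h2ab the octamer with 2 CCAAT matches, a TATAAA and the H1 box, and Hist1h4i a TATAAA alone.

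The genes that act on histones gave no call either. Replacement histones are not made in S phase alone, and most of their messages carry tails. Of 11 such genes, 2 had positive and 9 negative fold changes, where 48.8% of all tested genes were negative. Their median log2 was -0.12, or -0.06 without unloaded 1. Their sum was far higher than that of the clustered genes, at 2461, 2877 and 3016 CPM in unloaded libraries and 3107, 3201 and 2786 CPM in control libraries. H1f0, the replacement linker histone H1.0 of differentiated cells, was at 41.3, 45.9 and 49.7 CPM in unloaded libraries and 32.2, 39.9 and 41.2 CPM in control libraries. The unloaded libraries all lay above the controls, by little for unloaded 1, and the log2 fold change was 0.27 ± 0.13 (SE) with an adjusted p of 0.864. H2afj, an H2A variant, was the other positive one, and H2afy, encoding macroH2A1, had the smallest p among the negative ones, with a log2 fold change of -0.21 ± 0.13.

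Of 30 genes for the processing and decay of histone messages, 19 were above and 11 below 0, with a median of 0.05 (0.04 without unloaded 1) and none called. Slbp, the stem-loop binding protein, was at 118, 154 and 158 CPM in unloaded libraries and 163, 148 and 147 CPM in control libraries. Of 16 genes of histone transcription, 7 were above and 9 below 0, with a median of -0.03 (-0.04 without unloaded 1). Npat, the coactivator at the clusters, was at 22.9, 34.7 and 30.2 CPM in unloaded libraries and 32.8, 35.3 and 34.1 CPM in control libraries, with unloaded 1 the lowest. Of 22 chaperone and import genes, 14 were above and 8 below 0, with a median of 0.04 (0.05 without unloaded 1), and Supt16, a subunit of the FACT chaperone, had the smallest p. Supt16 was at 160, 144 and 144 CPM in unloaded libraries and 129, 123 and 129 CPM in control libraries, without overlap, with a log2 fold change of 0.23 and an adjusted p of 0.816.

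Genes of DNA replication, which are transcribed in the same phase as the histone genes, stood level. Of 39, 19 were above and 20 below 0, with a median log2 of 0.00 (0.05 without unloaded 1), and their sum was 5026 ± 364 CPM in unloaded and 5022 ± 13.5 CPM in control libraries (SD, n = 3 each). Unloaded 1 was the lowest of the 6 in that sum, at 4606 CPM. Of 18 mitosis genes, 5 were above and 13 below 0, with a median of -0.02 (0.03 without unloaded 1) and none called. The summed erythroid precursor markers, a cell type rich in dividing cells, were 6311 ± 922 CPM in unloaded and 4787 ± 552 CPM in control libraries, and those of B cell precursors 693.1 CPM in unloaded and 827.6 CPM in control libraries. Summed megakaryocyte markers were 87.9, 89.0 and 71.5 CPM in unloaded libraries and 98.1, 104.3 and 101.7 CPM in control libraries, without overlap. No marker was called, and the part of such shifts in the histone levels was not tested.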

How the data were processed

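Total RNA from freshly isolated femoral marrow cells was made into libraries, per the labels' protocols, using a NEBNext Ultra RNA kit. Per the submitters' processing notes the tools were CASAVA, HISAT2 2.0.5 and featureCounts 1.5.0-p3, with build mm10. Which annotation was used, whether counting was stranded and how reads with several matches were handled is not given in the sources used here. The authors deposited raw read counts per gene, with no normalization, for 6 libraries of 15850986 to 17775506 counts, and libraries were grouped by title, 3 unloaded and 3 control.

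From these counts, genes kept by filterByExpr (15015) were compared with edgeR 4.0.16 (TMM, glmQLFit and glmQLFTest; R 4.3.3), with Benjamini-Hochberg adjustment over all of them and calls at an adjusted p under 0.05. Alternatives were DESeq2 1.42.0, limma-voom (limma 3.58.1), other scalings and filters, a replicate block and each library left out. Intervals were not computed for sums, and floors of 3 counts cover counting error only. No 2 libraries agreed within sampling noise (chi-square per degree of freedom of 7.2 to 38.3). The 50-base pieces and stem-loops were read from GENCODE M21 transcripts and promoters from RefSeq.

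The genes named were the 4 most abundant of each class, the 4 with the smallest p in each direction, those at 0 and the 2 with the smallest p per direction of each related list, beside examples chosen after values were seen. The histone genes and the lists were chosen with earlier results of these data known.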

Additional observations from a re-analysis of the deposited data

How the results depend on the processing

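Over all genes edgeR called 0, against 183 with no filter on low counts, 35 with DESeq2, 1 with the replicate block and between 0 and 5 with each library left out in turn, the 5 without unloaded 1. Of the histone genes 1 (Hist1h1c) was called with no filter, where 6 had an unadjusted p under 0.05, against 3 in the main comparison. That number was 1 with DESeq2 and ran from 0 to 5 with a library left out, 0 without control 1 and 5 without unloaded 1. The log2 ratio of the H1 sum was -0.43 and became 0.18 without its most abundant member. Without its most abundant member the sum of all genes was -0.02 in place of -0.25. With each library left out, the log2 ratio ran from -0.39 to -0.11 for all members, -0.030 to 0.19 for H2A, -0.34 to 0.00067 for H2B, -0.091 to 0.23 for H3 and -0.24 to 0.012 for H4, and the median of the tested members from -0.054 to 0.16. That median was -0.014 when genes had to reach 1 CPM in 3 libraries. The sums of H2A, H2B, H3 and H4 and the median thus had no stable direction.

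Deviations of same-numbered libraries from their group means correlated at 0.03, -0.06 and 0.02, which gave no sign that the replicate numbers pair the samples. With 3 libraries per group these values cannot exclude a pairing. With the replicate block 3 histone genes had an unadjusted p under 0.05, all lower, and the log2 fold change of Hist1h4c was 0.0082 in place of -0.019. It was 0.027 with limma-voom. That of Hist2h2be was 0.0035 with upper-quartile scaling in place of -0.01.

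Of 26 named histone genes, 16 had the same sign under every alternative run. With each library left out in turn, fold changes of 10 genes crossed 0. Their log2 values ran from -0.021 to 0.34 for Hist1h1e, -0.15 to 0.19 for Hist1h2be, -0.32 to 0.037 for Hist1h3c, -0.44 to 0.00093 for Hist1h3d, -0.19 to 0.24 for Hist1h4c, -0.36 to 0.080 for Hist1h4d, -0.24 to 0.046 for Hist1h4i, -0.28 to 0.14 for Hist2h2be, -0.078 to 0.21 for Hist3h2a and -0.37 to 0.52 for Hist4h4, none of which was called under any setting. The cause was not tested. Depth limits the lowest genes, where 3 counts equal 0.172 to 0.191 CPM.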
